A study of Mus musculus with 7 samples.

Results

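The G2 and M phase genes are 45 genes whose products prepare a cell for division and carry it through mitosis. They were taken as a list of symbols drawn up by function, covering kinetochores, mitotic kinases, cyclins, protein degradation, the spindle, cytokinesis and chromosome condensation. Of the 45 symbols, 44 had at least 1 probe set annotated to that gene alone, among 12393 genes measured. The mitotic cyclin gene Ccnb1 was the 1 symbol without such a probe set and has no value here. The 44 genes were measured by 80 probe sets, and each gene is represented by its brightest one, taken as the mean log2 signal over 6 arrays.

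RNA from mouse fetal liver cells was hybridised to 7 short-oligonucleotide arrays. Progenitors of the liver endothelium that carried the surface antigen Sca1, the product of Ly6a, were on 2 arrays (Sca1+ 1 and 2). Liver endothelial cells without it were on 3 arrays (Sca1- 1, 2 and 3), and the title of Sca1- 1 leaves out the word progenitor. Progenitors whose title names no Sca1 fraction were on 1 array (unsorted), and a feeder cell layer from fetal liver was on 1 array, deposited in a separate table under another array platform. All samples are described as total RNA of mouse fetal liver, and strain, fetal age, culture time and treatment were not given in the sources used here. The titles of Sca1+ 2, Sca1- 2 and Sca1- 3 carry a sample number and those of the other 4 arrays do not. These are called the numbered and the unnumbered arrays, and each of these title sets holds both fractions. Nothing in the labels says whether the samples came from separate animals or cultures, so the spread behind the p-values may be only technical.

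Most of these genes are transcribed in a wave that starts in late S phase, peaks in G2 and mitosis, and is switched off in resting cells. Cyclins A and B bind the kinase Cdk1 to start mitosis, the kinetochore ties chromosomes to the spindle, the spindle checkpoint holds back anaphase until all are attached, and the anaphase-promoting complex then marks securin and the cyclins for destruction. In resting cells the DREAM complex represses the promoters through a short element called the CHR, most often TTTGAA, and in dividing cells NF-Y at CCAAT boxes, B-Myb and FoxM1 activate them. Fetal liver is the main blood-forming organ of the fetus and holds many dividing blood precursors.

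Promoter sequence is shown because many of the genes share these elements and none of the array values entered the sequence. RefSeq promoters (build GRCm38.p6, 250 bases before to 50 after the start site) were matched by symbol to 37 of the 45 genes, Ccnb1 included. For each of these genes 1 promoter was taken, the first one listed. The letters TTTGAA, or TTCAAA for the other strand, occurred in 25 of the 37 promoters (67.6%), against 17.9% of the 32851 promoters of that length in the table. They lay wholly within 50 bases of the start site in 23 of 37 (62.2%), against 4.94% of all promoters. CCAAT, or ATTGG for the other strand, occurred in 28 of 37 (75.7%) against 37.4%, and at 2 or more positions in 19 of 37 (51.4%) against 11.7%. Both sets of letters were present in 22 of 37 (59.5%), against 6.95% of all promoters. The comparison set of all promoters was not limited to 1 promoter a gene or to genes on the arrays. Overlapping matches were counted, and a match is a description of the letters and not of a bound site.

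The 120 bases before the start site are printed for the 6 genes described in detail below whose window holds TTTGAA or TTCAAA in full, with these letters and CCAAT or ATTGG in capitals, read 5′ to 3′ on the strand of the gene. The windows are chr2:164769809-164769928 (+) for Ube2c, chr4:118437344-118437463 (-) for Cdc20, chr3:89418292-89418411 (-) for Cks1b, chr7:127042421-127042540 (-) for Kif22, chr11:99024190-99024309 (-) for Top2a and chr3:27153879-27153998 (-) for Ect2, and none of them overlaps another gene of the same table.
Ube2c: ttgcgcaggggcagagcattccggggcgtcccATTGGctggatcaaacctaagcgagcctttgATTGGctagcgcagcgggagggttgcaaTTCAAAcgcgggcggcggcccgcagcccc
Cdc20: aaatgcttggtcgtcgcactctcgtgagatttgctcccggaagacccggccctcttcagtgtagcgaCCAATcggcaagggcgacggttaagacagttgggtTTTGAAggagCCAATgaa
Cks1b: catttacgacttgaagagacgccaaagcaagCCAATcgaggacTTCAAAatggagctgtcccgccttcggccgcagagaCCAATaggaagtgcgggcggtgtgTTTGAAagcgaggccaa
Kif22: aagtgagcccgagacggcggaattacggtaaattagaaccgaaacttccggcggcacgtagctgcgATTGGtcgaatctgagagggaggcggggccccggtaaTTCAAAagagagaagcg
Top2a: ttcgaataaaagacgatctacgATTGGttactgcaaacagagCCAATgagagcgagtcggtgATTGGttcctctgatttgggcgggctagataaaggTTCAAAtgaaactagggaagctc
Ect2: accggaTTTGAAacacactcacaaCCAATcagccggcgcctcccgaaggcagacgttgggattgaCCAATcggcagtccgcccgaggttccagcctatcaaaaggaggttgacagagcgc
In Ube2c the first base of the nearest match lay 29 bases before the start site, in Top2a 23, in Cdc20 18, and in Kif22 and Cks1b 17. In the Ect2 window the TTTGAA started 114 bases before the start site. A second TTTGAA of Ect2, outside the printed window, began at base 40 counted from the start site. Each of the 6 windows also held at least 1 CCAAT or ATTGG, and that of Top2a held 3.

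Signals are the deposited intensities scaled to a trimmed mean of 500 on each array, and differences are log2 signal in Sca1+ minus Sca1- with a floor of 64. The sorted arrays differed in their RNA. The 3′ to 5′ signal ratio of Actb probe sets, which is high where RNA is degraded or amplified from its 3′ end, was 6.83 on Sca1+ 1 and 13.5 on Sca1- 1, 1.87 to 2.37 on the numbered arrays, 1.01 on the unsorted and 1.03 on the feeder array. The hybridisation controls had a median signal of 9811 on Sca1- 1 against 2862 to 3994 on the other 4 sorted arrays. Of 12 endothelial markers, 3 and 8 exceeded a signal of 100 in Sca1+, 6, 5 and 5 in Sca1-, 10 in the unsorted and 6 in the feeder sample. The endothelial marker Pecam1 was 15.0 and 206 in Sca1+ and 23.2, 117 and 25.8 in Sca1-. Kdr was 191 and 432 in Sca1+ and 141, 254 and 315 in Sca1-. Eng was 184 and 749 in Sca1+ and 422, 334 and 302 in Sca1-. Kdr and Eng exceeded 100 on all 7 arrays, while Tek and Tie1 did so on none, so the endothelial label rested on part of the list. Ly6a, the gene of Sca1, has no probe set of its own, so the sort could not be checked by it. 

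G2 and M phase transcripts were at lower levels in the Sca1+ than in the Sca1- fraction almost throughout the list. Of the 44 genes measured, 43 had a difference below 0, and the exception was Foxm1 at 0.05. Without a filter on low signal, 42.4% of all 12393 genes were below 0. In 28 of the 44 genes both Sca1+ arrays were below all 3 Sca1- arrays, against 6.17% of all genes, and in 0 were they above. The median difference of the 44 genes was -0.94, and that of all genes without a filter was 0. The median log2 signal of the 44 genes was 8.13 and 8.02 in Sca1+ and 8.92, 9.08 and 9.15 in Sca1-, so the arrays of the fractions did not overlap in this median.

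No single gene passed the test for this difference. With limma over the 8591 genes whose signal exceeded 100 in 2 or more of the 5 sorted samples and Benjamini-Hochberg adjustment, 0 genes (0.00%) and 0 of the 42 tested G2 and M phase genes passed an adjusted p of 0.05. Each of the 42 had a limma adjusted p of 0.9995. At an unadjusted p under 0.05, 14 of the 42 were lower in Sca1+ and 0 higher, against 2.29% of all genes tested that were lower. Among the 38 that did not depend on the Sca1- arrays to enter the test (below), 13 were. With the title set as a block in the same limma fit, 85 genes passed, all lower in Sca1+ (0.989%), and again 0 of the 42. The smallest adjusted p among the 42 was then 0.0521, for Cks2. At an unadjusted p under 0.05 in that blocked fit, 25 of the 42 and 22 of these 38 were lower, against 7.82% of genes. In 3 further settings of the blocked fit, tried after the data were seen, 1 of the 42 passed: Kif2c at a signal minimum of 300 (limma adjusted p = 0.0474), and Cks2 with quantile normalization (0.0436) or without probe sets ending in _x_at or _s_at (0.0496).

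The filter left out Cenpe and Cdc25c. Another 4 genes, Ttk, Ndc80, Kif4 and Kif20a, passed it through Sca1- arrays alone, with no Sca1+ array above 100. Among the other 38 genes, 37 had a difference below 0 and 25 had arrays that did not overlap. Without the 4, the role medians were -0.82 for kinetochore, -1.07 for spindle and -0.99 for cytokinesis genes, and the other 4 roles held none of them. Among all 8591 genes tested, 44.1% were below 0 and 8.45% did not overlap and were lower in Sca1+. The differences of the 42 tested genes had a median of -0.96, quartiles of -1.22 and -0.64 and an SD of 0.44 between genes, around a median of 0.07 for all genes. In bulk samples, fewer cells in G2 and M and less of these transcripts per cell cannot be told apart.

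**Figure D1:**
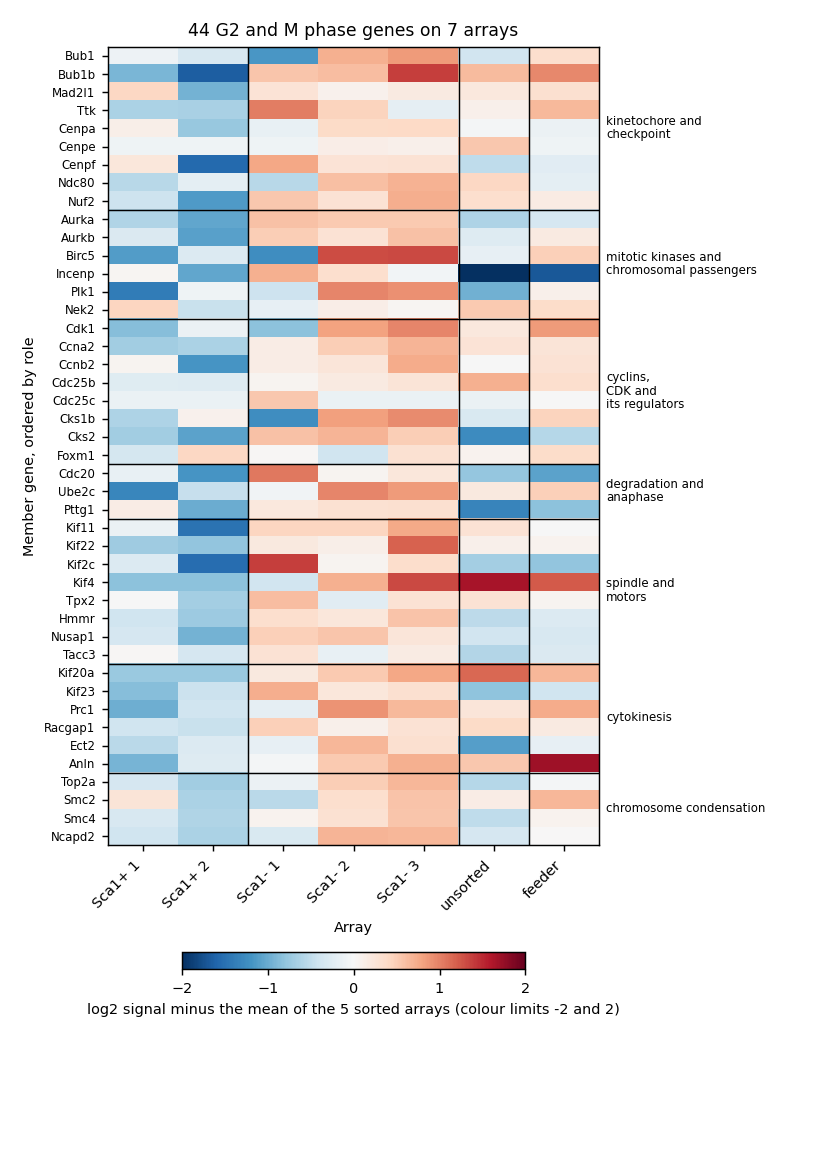
Log2 signal of each of the 44 genes (rows, ordered by role) on the 7 arrays (columns), relative to the mean of the 5 sorted arrays, with colours limited at -2 and 2. The Sca1+ columns are mostly blue and the Sca1- columns mostly red, with Sca1- 1 blue for some genes such as Bub1, Birc5, Cdk1 and Cks1b.

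**Figure D2:**
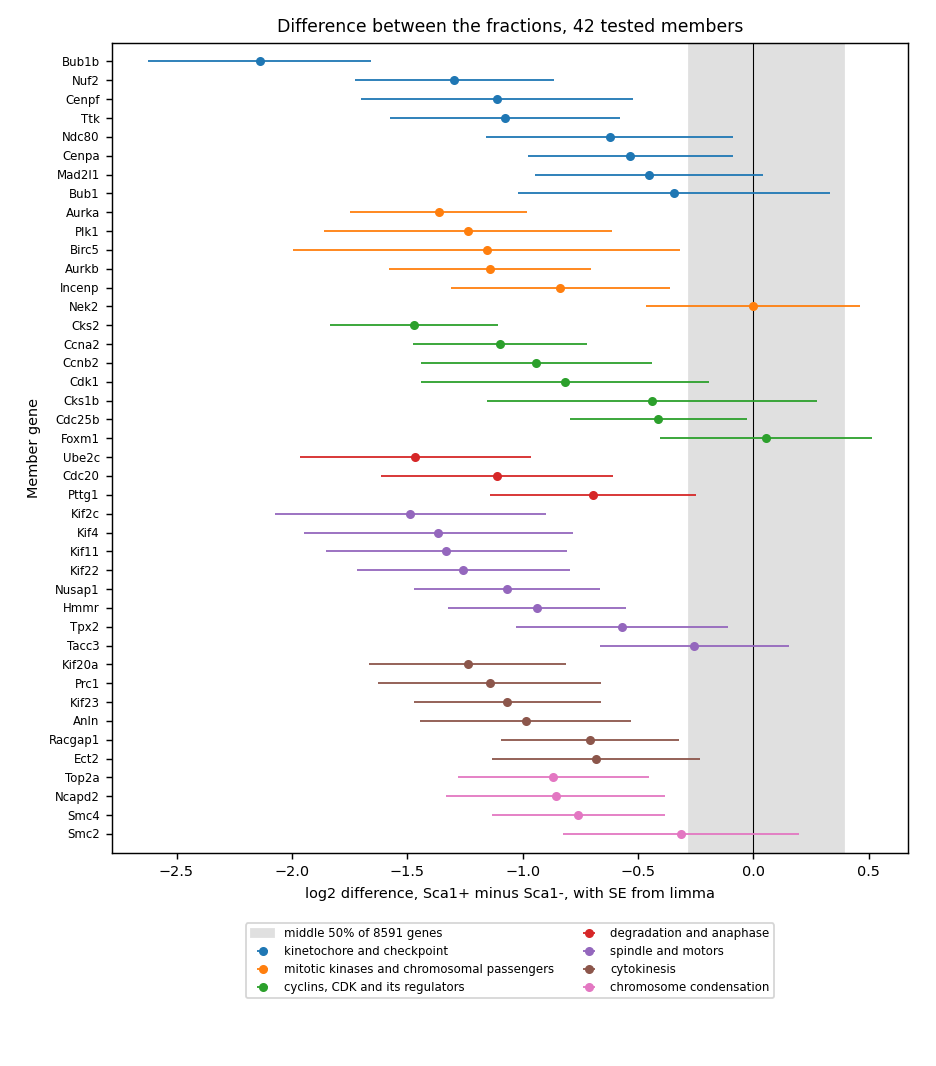
Difference Sca1+ minus Sca1- on the log2 scale (horizontal axis) for the 42 tested genes, grouped and coloured by role, with bars of 1 SE from limma and the middle 50% of all 8591 genes in grey. All but Foxm1 lie below 0, from -2.14 for Bub1b upward, and Nek2 lies next to 0.

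The 8 tested kinetochore and checkpoint genes had a median difference of -0.85, and in 4 of them the arrays of the fractions did not overlap. For comparison with this and the following roles, 8.45% of all genes tested were lower in Sca1+ without overlap. Bub1b encodes BubR1, the checkpoint protein that holds the anaphase-promoting complex inactive until chromosomes are attached. Its signal was 106 and 28.4 in Sca1+, 296, 309 and 522 in Sca1-, 312 unsorted and 389 in feeder cells. Both Sca1+ arrays were below every other array, and Sca1+ 2 was under the floor of 64. The difference of Bub1b was -2.14 ± 0.48 (SE), the lowest of the list, and -2.15 ± 0.43 with the title set as a block (limma adjusted p = 0.117). With the floor 2 times as high it was -1.50. Nuf2, a subunit of the Ndc80 complex that binds microtubules, gave 221 and 135 in Sca1+, 431, 362 and 488 in Sca1-, 372 unsorted and 329.9 in feeder cells. Its Sca1+ arrays were again the lowest pair, and the difference was -1.30 ± 0.43.

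Cenpa encodes the histone H3 variant that marks the centromere. Its signal was 658 and 360.3 in Sca1+, 551, 796 and 798 in Sca1-, 589 unsorted and 562 in feeder cells. The fractions overlapped, since Sca1+ 1 exceeded Sca1- 1, and the difference was -0.53 ± 0.45, or -0.97 without Sca1+ 1 and -0.10 without Sca1+ 2. Bub1, a checkpoint kinase, overlapped more widely. It gave 221 and 189 in Sca1+, 105, 388 and 427 in Sca1-, 181 unsorted and 298 in feeder cells. Sca1- 1 was the lowest of the 7 arrays, and below its brightest background control, while Sca1- 2 and 3 were the highest, and the difference of -0.34 ± 0.68 was smaller than its SE. Of the other members, the checkpoint kinase gene Ttk (-1.08 ± 0.50) and Cenpf (-1.11 ± 0.59), a kinetochore protein, had arrays that did not overlap, and the checkpoint gene Mad2l1 (-0.45 ± 0.49) and Ndc80 (-0.62 ± 0.54) overlapped. Cenpe, a kinetochore motor, was at or below 98.6 on all 7 arrays.

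Mitotic kinases and chromosomal passengers had a median difference of -1.15 over 6 genes, of which 2 did not overlap. Aurka, the kinase of centrosomes and spindle poles, gave 341 and 252 in Sca1+, 773, 746 and 746 in Sca1-, 338 unsorted and 409.7 in feeder cells. The 3 Sca1- arrays lay within a narrow range, and every other array was far below them. The difference was -1.36 ± 0.38, or 2.58-fold lower in Sca1+, and -1.40 ± 0.26 with the block (limma adjusted p = 0.0997). Aurkb, the kinase of the chromosomal passenger complex, gave 208 and 121 in Sca1+, 359.8, 310.5 and 383 in Sca1-, 214 unsorted and 289 in feeder cells. The fractions did not overlap and the difference was -1.14 ± 0.44. This rests on a probe set with the suffix _x_at, which marks probes that may also bind other sequences. The other Aurkb probe set gave a difference of 0.26, so the direction for Aurkb depends on the probe set.

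Incenp, the scaffold of the same complex, gave 2769 and 1305 in Sca1+, 4413, 3413 and 2603 in Sca1-, 586 unsorted and 833 in feeder cells. Sca1+ 1 exceeded Sca1- 3 by a little, so the fractions overlapped, and the difference was -0.84 ± 0.47, or -1.38 without Sca1+ 1 and -0.30 without Sca1+ 2. The unsorted and feeder arrays were far below all 5 sorted arrays for this probe set, which is also of the _x_at kind. A second Incenp probe set without that suffix had signals of 186 to 569 on the 5 sorted arrays and a difference of -0.64. Nek2, a centrosomal kinase, gave 143 and 78.0 in Sca1+, 94.5, 116 and 108 in Sca1-, 152 unsorted and 137 in feeder cells. Its arrays were interleaved and its difference was -0.002 ± 0.46, a sign that turned with the normalization. Birc5, which encodes survivin of the passenger complex, and the polo-like kinase gene Plk1 had differences of -1.16 ± 0.84 and -1.24 ± 0.63. Birc5 was 239.7 on Sca1- 1, below both Sca1+ arrays at 262 and 473, while Sca1- 2 and 3 were at 1413 and 1427. Plk1 was 158 and 393 in Sca1+ and 314, 824 and 785 in Sca1-, and within each title set the Sca1+ array was the lower.

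**Figure D3:**
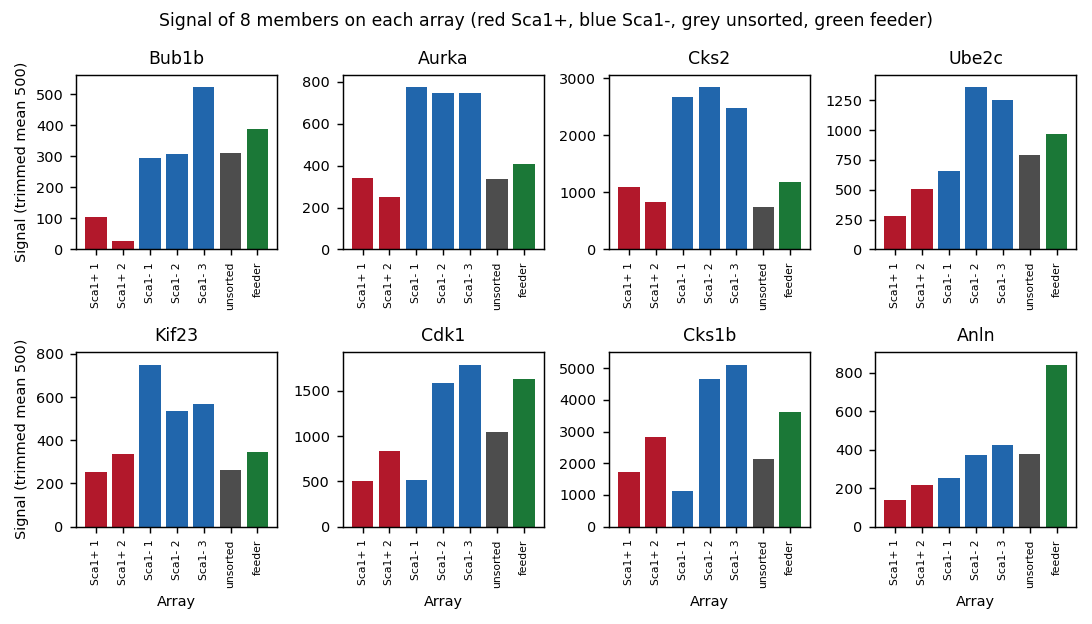
Signal on each of the 7 arrays (bars, linear axis from 0, arrays scaled to a trimmed mean of 500) for 8 genes. In Bub1b, Aurka, Cks2, Ube2c, Kif23 and Anln the Sca1+ bars are below every Sca1- bar, while in Cdk1 and Cks1b the bar of Sca1- 1 is as low as the Sca1+ bars or lower.

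Cyclins, Cdk1 and their regulators differed by a median of -0.82, with 7 genes tested, of which 4 did not overlap. Cks2 encodes a small protein that binds Cdk complexes and is needed for their full activity. It gave 1097 and 840.5 in Sca1+, 2669, 2842 and 2490.2 in Sca1-, 740.0 unsorted and 1192 in feeder cells. The 3 Sca1- arrays were close together and above all other arrays, and the unsorted array was the lowest. The difference was -1.47 ± 0.36, or 2.77-fold lower in Sca1+, and -1.50 ± 0.23 with the block (limma adjusted p = 0.0521). A second Cks2 probe set gave -1.50. Ccna2, the cyclin of S phase and G2, gave 531 and 553 in Sca1+, 951, 1202 and 1368 in Sca1-, 1034 unsorted and 1022 in feeder cells. The Sca1+ arrays were nearly equal and below the other 5, with a difference of -1.10 ± 0.38 and -0.999 for a second probe set.

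Cks1b, the paralogue of Cks2, behaved differently on Sca1- 1. Its signal was 1721 and 2817 in Sca1+, 1119, 4661 and 5108 in Sca1-, 2148 unsorted and 3609.6 in feeder cells. Sca1- 1 was the lowest array of all and Sca1- 2 and 3 the highest, so the fractions overlapped and the difference was -0.44 ± 0.71. A second Cks1b probe set gave -0.34, with Sca1- 1 again the lowest. Cdk1, the kinase that starts mitosis, was also low on Sca1- 1, with 499.8 and 832 on Sca1+, 515, 1588 and 1790.2 on Sca1-, and a difference of -0.82 ± 0.63. Foxm1, the transcription factor that activates many genes of the list, gave 209 and 355 in Sca1+, 271, 203 and 327 in Sca1-, 279.5 unsorted and 342 in feeder cells. Its fractions were interleaved, and it had the 1 positive difference, 0.05 ± 0.46. A second Foxm1 probe set, of the _x_at kind, gave -1.21, so for this gene the probe sets disagreed. The cyclin gene Ccnb2 (-0.94 ± 0.50) and the phosphatase gene Cdc25b (-0.41 ± 0.38) had Sca1+ arrays below all Sca1- arrays. Cdc25c, a phosphatase that activates Cdk1, was at or below 102 on all 7 arrays.

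The genes of protein degradation and anaphase had a median difference of -1.11, and in all 3 the arrays did not overlap for the probe set used. Ube2c, the ubiquitin-conjugating enzyme that works with the anaphase-promoting complex, gave 280.3 and 505 in Sca1+, 659, 1357 and 1253 in Sca1-, 792 unsorted and 964 in feeder cells. The arrays of each fraction spread widely, and every Sca1- array was above every Sca1+ array. The difference was -1.47 ± 0.50, or 2.76-fold lower in Sca1+, and -1.31 ± 0.24 with the block (limma adjusted p = 0.0900). Cdc20, the activator that brings substrates to the complex, gave 1384 and 672 in Sca1+, 3169, 1596 and 1785 in Sca1-, 898 unsorted and 729.6 in feeder cells. Sca1+ 2 and the feeder array were the lowest and Sca1- 1 the highest. The difference was -1.11 ± 0.50, and -1.27 ± 0.22 with the block (limma adjusted p = 0.0764). This probe set is of the _x_at kind, and another Cdc20 probe set gave -0.40 with fractions that overlapped. Pttg1 encodes securin, the inhibitor of separase that is destroyed at anaphase. It gave 7393 and 3345 in Sca1+, 7667, 8166 and 8329 in Sca1-, 2646 unsorted and 3772 in feeder cells. Sca1+ 1 was just under the Sca1- arrays and Sca1+ 2 well under them, and the difference was -0.69 ± 0.45. It was -1.27 without Sca1+ 1 and -0.12 without Sca1+ 2. The other Pttg1 probe sets gave -0.50 and -0.38, and in both the fractions overlapped.

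Spindle proteins and motors had a median difference of -1.16 over 8 genes, and 6 did not overlap. Kif22, a motor that pushes chromosome arms away from the poles, gave 434 and 409.6 in Sca1+, 818, 772 and 1619 in Sca1-, 764 unsorted and 743 in feeder cells. The Sca1+ arrays were nearly equal and the lowest of all, and Sca1- 3 stood above the rest. The difference was -1.26 ± 0.46. Nusap1, a protein that bundles spindle microtubules, gave 413 and 271 in Sca1+, 722, 769 and 620.1 in Sca1-, 399 unsorted and 416 in feeder cells. All 3 Sca1- arrays were above the other 4 arrays, and the difference was -1.07 ± 0.40. Tacc3, which stabilises spindle microtubules with Aurora A, gave 283 and 220.3 in Sca1+, 338, 251 and 312 in Sca1-, 185 unsorted and 227 in feeder cells. Its fractions overlapped and the difference of -0.26 ± 0.41 was smaller than its SE. Its 3 probe sets gave -0.73, -0.26 and 0.27, which differ in sign.

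The remaining motors were low in Sca1+ as well. Kif11, the motor that separates the spindle poles, was at 164 and 52.8 in Sca1+ and 239, 239 and 299.9 in Sca1-, a difference of -1.33 ± 0.52. Kif2c, which takes apart microtubule ends at the centromere, was at 370.2 and 156 against 1158, 463 and 568. Its difference was -1.49 ± 0.59, and -1.69 ± 0.27 with the block (limma adjusted p = 0.0623). This probe set is of the _x_at kind, and the other Kif2c probe sets past the filter gave -0.52 and -0.85. Kif4, a chromosome-bound motor, was under the floor on both Sca1+ arrays, and was 86.1, 185 and 281 in Sca1-, of which the first is below that array's brightest background control. Its difference of -1.37 ± 0.58 was set by the floor. Hmmr, a spindle-associated protein, did not overlap for the probe set used (-0.94 ± 0.38). The other Hmmr probe sets past the filter gave -0.56 and -0.09, and in both the fractions overlapped. Tpx2, the activator of Aurora A on the spindle, overlapped (-0.57 ± 0.46).

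The 6 cytokinesis genes all had Sca1+ arrays below every Sca1- array, with a median difference of -1.03 and a range from -1.24 to -0.68. The lowest value is that of Kif20a, which entered the test through Sca1- arrays alone, and the other 5 ranged from -1.14 to -0.68. Kif23 and Kif20a are motors of the central spindle. Kif23 gave 253 and 337 in Sca1+, 750.0, 533 and 570.2 in Sca1-, 260.1 unsorted and 346 in feeder cells. The Sca1+ and unsorted arrays were the lowest and Sca1- 1 the highest, and the difference was -1.07 ± 0.40. Kif20a gave 49.2 and 50.4 in Sca1+, 122, 155 and 183 in Sca1-, 237 unsorted and 171 in feeder cells. Both Sca1+ arrays were under the floor of 64 and the unsorted array was the highest. Its difference of -1.24 ± 0.43 was set by the floor, and Sca1- 1 was also under the brightest background control of its array, which read 169.9. With the floor 2 times as high the difference of Kif20a was -0.26, and Sca1- 1 then also lay under the floor.

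Prc1 encodes the protein that bundles the antiparallel microtubules of the central spindle. It gave 209 and 310.3 in Sca1+, 360.4, 768 and 644 in Sca1-, 483 unsorted and 683 in feeder cells. Sca1- 1 was well below Sca1- 2 and 3 yet still above both Sca1+ arrays, and the difference was -1.14 ± 0.48. Ect2, the exchange factor that switches on RhoA at the cleavage furrow, gave 126 and 151 in Sca1+, 164, 290.1 and 227 in Sca1-, 85.4 unsorted and 163 in feeder cells. The unsorted array was the lowest and the difference was -0.68 ± 0.45. Racgap1, a partner of Kif23 in centralspindlin, and Anln, the furrow scaffold anillin, had differences of -0.71 ± 0.38 and -0.99 ± 0.46.

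The 4 genes of chromosome condensation had a median difference of -0.81, and 3 did not overlap. Top2a, the topoisomerase that untangles sister chromatids, gave 925 and 723 in Sca1+, 1082, 1644 and 1867 in Sca1-, 793 unsorted and 1138 in feeder cells. Every Sca1- array was above both Sca1+ arrays, and the unsorted array was between these. The difference was -0.87 ± 0.41. Smc4, a core subunit of condensin, gave 1025 and 844 in Sca1+, 1332, 1567 and 1865 in Sca1-, 899 unsorted and 1343 in feeder cells. For the probe set used, the order of the arrays was much as for Top2a, and the difference was -0.76 ± 0.38. The other Smc4 probe sets gave -0.97 and -0.36, and in both the fractions overlapped. Smc2, the partner of Smc4, gave 802 and 429 in Sca1+, 461, 845 and 996 in Sca1-, 741 unsorted and 1061 in feeder cells. Here Sca1+ 1 was far above Sca1- 1, the fractions overlapped, and the difference was -0.31 ± 0.51. The condensin subunit Ncapd2 was low in Sca1+ without overlap, with a difference of -0.86 ± 0.47.

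The size of the difference varied with the title set. Among the numbered arrays, 41 of the 42 tested genes were below 0 with a median of -1.19, against 43.3% of all genes below 0. Between the single unnumbered arrays of each fraction, 34 of 42 were below 0 with a median of -0.58, against 46.9% of all genes. The role medians were below 0 in both sets. In the unnumbered set they ran from -0.16 for condensation and -0.27 for kinetochore genes to -1.20 for degradation genes. In the numbered set they ran from -0.82 for cytokinesis to -1.40 for spindle genes. Cytokinesis and degradation genes had similar medians in the sets, -0.88 and -0.82 for the former and -1.20 and -1.33 for the latter. The 42 include Ttk, Ndc80, Kif4 and Kif20a, which entered the test through Sca1- arrays alone. Values by title set were not taken without these genes, so the kinetochore, spindle and cytokinesis medians rest partly on them. For Kif4 and Kif20a both Sca1+ arrays were under the floor. The differences between sets were not tested.

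Single genes followed the same split. Bub1 (1.07 unnumbered, -1.11 numbered), Smc2 (0.80 and -1.10), Cks1b (0.62 and -0.79) and Nek2 (0.60 and -0.52) were higher in Sca1+ among the unnumbered arrays and lower among the numbered ones. Bub1b was low in both sets, at -1.48 among the unnumbered arrays and, with Sca1+ 2 under the floor, a value set by the floor among the numbered ones. Low in both were also Cks2 (-1.28 and -1.66), Kif2c (-1.65 and -1.72), Aurka (-1.18 and -1.57) and Ube2c (-1.23 and -1.37). For Kif2c this depended on the probe set, since another gave 0.86 and -1.35, and a further one -1.05 and -0.53. Ndc80 was 0 among the unnumbered arrays because both values were under the floor. The 3′ to 5′ ratios of the unnumbered sorted arrays were the highest of the 7, and their part in these values was not tested. Sca1+ 2 was the lowest of the 5 sorted arrays for 27 of the 44 genes, and without it the median difference was -0.77 with 39 of 42 genes below 0. Without Sca1- 1 the median was -1.05 and 41 of 42 were below 0.

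**Figure D4:**
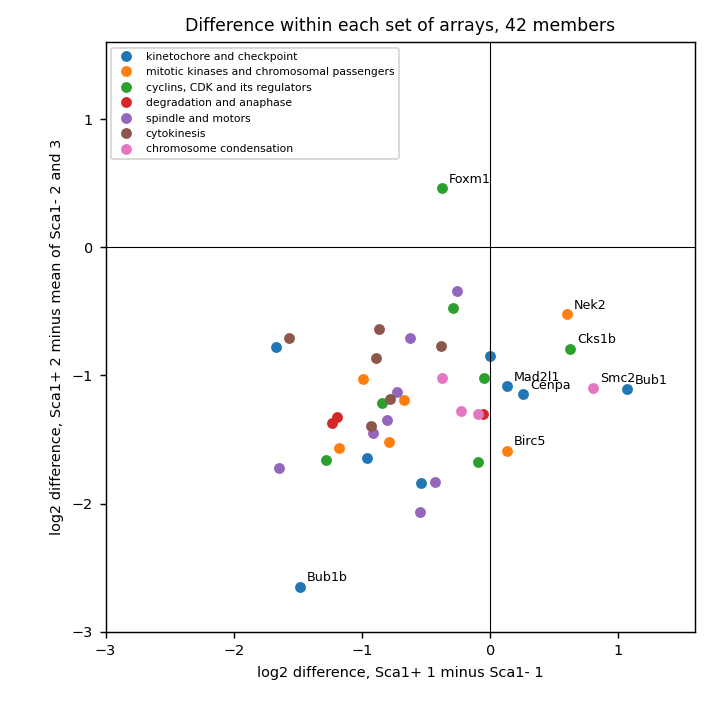
Difference Sca1+ minus Sca1- on the log2 scale within the unnumbered arrays (horizontal axis, 1 array against 1) and within the numbered arrays (vertical axis, 1 array against the mean of 2) for the 42 tested genes, coloured by role. Most genes lie below 0 on both axes, Foxm1 is the 1 gene above 0 on the vertical axis, and Bub1, Smc2, Cks1b and Nek2 lie furthest to the right.

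Markers of other cells moved with the fractions too. Of 13 granulocyte markers tested, 13 had a difference below 0 (44.1% of all genes), in 12 the arrays did not overlap (8.45%), and 0 passed in limma by group only. With the title set as a block 7 passed in limma (0.989% of all genes). Their summed signal was 142403 and 9159 in Sca1+ and 613753, 238966 and 212375 in Sca1-, against 64025 unsorted and 4776 in feeder cells. Mpo, the myeloperoxidase of granulocyte precursors, was 6101 and 167 in Sca1+ and 19588, 14278 and 13593 in Sca1-, and exceeded 100 on every sorted array. Of the 13, 12 and 10 exceeded 100 in Sca1+, 13 on each Sca1- array, 11 in the unsorted and 7 in the feeder sample. Elane entered the test through Sca1- arrays alone. Among the other 12 granulocyte markers, 12 were below 0 and 11 did not overlap. The summed signal of 11 haematopoietic progenitor markers was 3889 and 3904 in Sca1+ and 5431, 5559 and 5383 in Sca1-. Of the 10 progenitor markers tested, 7 were below 0 (44.1% of all genes). Without overlap, 4 of these 10 were lower and 1 higher (8.45% and 12.1% of all genes). Of 12 macrophage markers, 11 were tested and 1 was below 0. The summed signal of 10 fibroblast markers was 10269 in Sca1+ 1 and 5209 in Sca1- 1, and 90659.8 in Sca1+ 2 and 37668 and 35098 in Sca1- 2 and 3, so it was higher in Sca1+ within each title set and higher on the numbered arrays. Of the 10, 2 had a difference below 0. Of 12 red cell markers measured, 5 were tested. Among these Alas2, an enzyme of haem synthesis, was 13.6 and 26.6 in Sca1+ and 202, 139.9 and 139 in Sca1-. It was lower in Sca1+ without overlap, but Alas2 and the red cell marker Gata1 entered the test through Sca1- arrays alone. Epor, the erythropoietin receptor, was higher without overlap (0.47 ± 0.43). The transferrin receptor gene Tfrc, at 545 to 3558 on the sorted arrays, overlapped. Of 4 tested B lineage markers 0 were below 0, of 5 hepatoblast markers 2, of 5 red cell markers 2 and of 7 endothelial markers 1. Without Alas2 and Gata1, 0 of 3 red cell markers were below 0. The part of these cells in the values of the G2 and M phase genes was not tested.

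Other genes of the cell cycle were read from lists by function. Of 47 further G2 and M phase genes measured, 40 were tested, with a median of -0.61. Of the 40, 37 had a difference below 0, against 44.1% of all genes tested. In 15 the arrays did not overlap and were lower in Sca1+, against 8.45% of all genes tested. With the title set as a block, 1 of the 40 passed, against 0.989% of all genes tested. This was Hmgb2, a chromatin protein abundant in dividing cells, at 1282 and 609.6 in Sca1+, 5511, 3955 and 3859.8 in Sca1-, 623 unsorted and 499 in feeder cells. Its Sca1- arrays were far above the other 4, and the blocked difference was -2.43 ± 0.24 (limma adjusted p = 0.0114). Ccnf, the cyclin F of an SCF ubiquitin ligase, and Cdca3, a factor for mitotic entry, had differences of -2.01 ± 0.48 and -1.30 ± 0.40 and arrays that did not overlap. Ccnf was 79.4 and 65.6 in Sca1+, so it was 1 of 4 genes of this list that entered the test through Sca1- arrays alone, and without the 4 the count was 33 of 36 below 0 and 14 without overlap.

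For the anaphase-promoting complex itself the differences lay on both sides of 0. Of 11 tested subunits and partners of the anaphase-promoting complex, 6 were below 0, 0 were lower without overlap (8.45% of all genes tested) and 2 were higher without overlap (12.1%), with a median of -0.02. The count of 2 is near the share over all genes, and the genes were Cdc16 (0.73 ± 0.41) and Anapc4 (0.39 ± 0.40), both core subunits. Ube2s, which lengthens ubiquitin chains on its substrates, varied more between title sets than between fractions, with 105 and 1963 on Sca1+ and 299.6, 3522 and 2635 on Sca1-. Cohesin genes, which hold sister chromatids together, had a median of -0.11 over 7 genes. In 1 of these, Stag1 (-0.22 ± 0.37), the Sca1+ arrays were below all Sca1- arrays. Smc1a (-0.15 ± 0.39) and Pds5a (-0.24 ± 0.87) overlapped.

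The regulators of G2 and M transcription had a median of -0.10 over 16 genes, with 3 lower and 2 higher without overlap, against 8.45% and 12.1% of all genes. These 16 include Mybl2 and Lin9, which entered the test through Sca1- arrays alone. Without them the median was -0.03 over 14 genes, with 2 lower and 2 higher without overlap. Mybl2, the B-Myb that activates CHR promoters, gave 71.6 and 78.8 in Sca1+, 144, 149.5 and 162 in Sca1-, 127 unsorted and 123 in feeder cells. Both Sca1+ arrays were the lowest of the 7, and the difference was -1.01 ± 0.41. Mybl2 entered the test through Sca1- arrays alone, and Sca1+ 2 and Sca1- 1 were below the brightest background controls of their arrays, 82.0 and 169.9. Tfdp1, the partner of E2F proteins, and E2f8, an E2F repressor, had differences of -0.77 ± 0.37 and -0.96 ± 0.64. S phase genes, which act in DNA synthesis just before G2, had a median of -0.20 over 30 tested genes, with 18 below 0 (44.1% of all genes). Of the 30 S phase genes, 8 were lower and 1 higher without overlap, against 8.45% and 12.1% of all genes. Their median was 0.27 between the unnumbered arrays and -0.62 among the numbered ones. The S phase genes with the smallest p were Rrm2 (-1.39 ± 0.45), a subunit of ribonucleotide reductase, the helicase factor Cdc45 (-1.52 ± 0.57) and Uhrf1 (-1.27 ± 0.51), which keeps DNA methylation through replication. Differences between lists were not tested.

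Among genes with a promoter and a tested difference, the 25 with TTTGAA in the promoter had a median of -1.07 and the 10 without it -0.57. The 25 include Ttk (-1.08), Ndc80 (-0.62) and Kif4 (-1.37), which entered the test through Sca1- arrays alone, and the 10 include no such gene. The median of the 25 was not taken without them, so the medians are not set on equal terms. The 6 genes with printed windows had differences of -1.47 (Ube2c), -1.26 (Kif22), -1.11 (Cdc20), -0.87 (Top2a), -0.68 (Ect2) and -0.44 (Cks1b). Genes of either kind covered much of the range, since the promoters of Cks2 and Nuf2 held no TTTGAA at differences of -1.47 and -1.30. These values are a description, and the genes were not tested against each other.

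On the feeder array, the G2 and M phase genes lay above the unsorted array by a median of 0.29, with 29 of 44 above 0. Each group is 1 array, so there is no test and no replicate check. Over 9751 genes above the signal minimum on either array the median was -0.13 and 42.1% were above 0. Of the 44, 42 were among these genes, with a median of 0.29 and 28 above 0. The list thus lay above the median of all genes. Differences of 2-fold or more upward in feeder cells were seen in 2 of the 42, against 4.08% of all genes, and downward in 0, against 15.9%. Anln was 842 on the feeder and 377 on the unsorted array, a difference of 1.16. Plk1 was 446 against 214, a difference of 1.06. Anln was higher on the feeder array than on any of the other 6 arrays, while Plk1 was higher still on Sca1- 2 and 3. The highest role medians were 0.52 for condensation, 0.47 for kinases and 0.46 for cytokinesis, and spindle genes had -0.07. Under quantile normalization the 44 genes had a median of 0.45 and under median scaling 0.65, where genes above the minimum on at least 2 of the 7 arrays had 0.00 and 0.26, against -0.07 under trimmed mean scaling.

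Set against each sorted array in turn, the feeder array lay between the fractions. The 44 genes were above Sca1+ 1 and 2 by medians of 0.39 and 0.69, near Sca1- 1 at 0.02, and below Sca1- 2 and 3 at -0.23 and -0.48. The median over all genes was between 0.00 and 0.12 in these 5 comparisons.

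The unsorted array was compared with the mean of the fraction means. The feeder minus unsorted comparison uses the same unsorted array, so the values are not independent. The 44 genes had a median of 0.04. Over 9223 genes above the signal minimum on 2 or more of these 6 arrays the median was 0.25, and the 42 listed genes among them had 0.04. At least 2-fold higher on the unsorted array were 2 of the 42, against 19.4% of the 9223 genes. At least 2-fold lower were 4, against 7.78%. Kif4 (1.78) and Kif20a (1.27) were the higher pair. Incenp (-2.12), Pttg1 (-1.26), Cks2 (-1.11) and Ect2 (-1.03) were the lower ones. Ect2 was 85.4 on the unsorted array, below that array's brightest background control of 170. The direction depended on the probe set for Incenp, whose other tested probe set gave 0.36. For Pttg1 the other probe sets gave -1.57 and 0.02, and for Cks2 the second gave -0.26. The direction of the median turned with the scaling, to -0.32 under quantile normalization and -0.64 under median scaling, where all genes had medians of -0.04 and -0.45. Under trimmed mean scaling all genes had 0.25, and the 44 genes lay below the median of all genes under each of the 3.

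**Figure D5:**
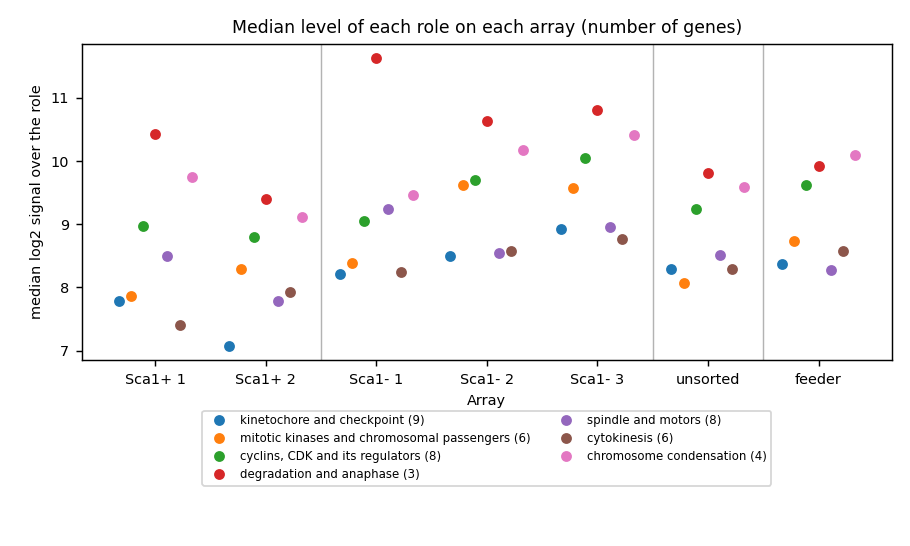
Median log2 signal of the genes of each role (colours, number of genes in the legend) on each of the 7 arrays. Values can be compared between arrays within a colour, and not between colours, since probe sets differ in brightness. For 6 of the 7 roles both Sca1+ medians are below every Sca1- median, and for condensation Sca1+ 1 at 9.75 is above Sca1- 1 at 9.46.

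Agreement between probe sets of 1 gene was checked because several of the probe sets used may also bind other sequences. Of the 80 probe sets, 65 passed the filter, and 62 of these had a difference below 0. The 3 above 0 belonged to Aurkb, Foxm1 and Tacc3. Among 18 genes with at least 2 such probe sets, all probe sets of 15 were below 0. With probe sets of the _x_at kind left out, an alternative chosen after seeing the data, the median of the tested genes was -0.86, with 40 of 42 below 0 and 27 without overlap.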

How the data were processed

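The 7 arrays hold 1 signal intensity per probe set on a linear scale, and the deposited intensity values had a trimmed mean near 250 on each array. GCOS is named in the submitters' processing notes for the 3 numbered arrays. The software for the others was not given in the sources used here. The feeder array was joined to the other 6 by probe set name. Of 22690 probe sets, 64 were controls, and the platform annotation gave a single gene for 20380, several genes for 691 and no gene for 1555. Signals of an array were multiplied to bring its 2% trimmed mean to 500, raised to 64 where lower, and put on the log2 scale. The test took genes whose signal exceeded 100 in 2 or more of the 5 sorted samples and used limma 3.58.1 in R 4.3.3 (lmFit, eBayes with intensity trend, group only, 6 arrays), with Benjamini-Hochberg adjustment over 8591 genes at 0.05. The fit was tested on simulated data.

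Groups came from the sample titles, with missing numbers taken as replicate 1. The number of arrays limits the precision. The genes, roles, lists and tests were chosen with earlier results of these data known. Values on all arrays are given, within each role, for the 2 genes with the smallest p, the one with the highest mean signal and the one with the highest difference, and for the 3 genes of smallest p in each pathway list. Alternatives covered scaling, floor, filter, probe sets, trend, blocks and each left-out sorted array. Figures were drawn with matplotlib 3.10.9.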

Additional observations from a re-analysis of the deposited data

Results flagged for a closer look

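The difference Sca1+ minus Sca1- had opposite signs in the title sets, on every array compared, for 8 of the 42 tested genes. In each case this difference between sets was not tested, and the unnumbered set has 1 array of each fraction. The change from the unnumbered to the numbered set, with the value in each set, was -2.18 for Bub1 (1.07 and -1.11), -1.90 for Smc2 (0.80 and -1.10), -1.72 for Birc5 (0.13 and -1.59) and -1.41 for Cks1b (0.62 and -0.79). It was -1.40 for Cenpa (0.26 and -1.15), -1.21 for Mad2l1 (0.13 and -1.08) and -1.12 for Nek2 (0.60 and -0.52). These 7 genes were higher in Sca1+ among the unnumbered arrays and lower among the numbered arrays. The change had the opposite sign at 0.84 for Foxm1 (-0.38 and 0.46). Cks1b, Bub1 and Birc5 were at their lowest of the 7 arrays on Sca1- 1, which had the highest 3′ to 5′ ratios of Actb and Gapdh, 13.5 and 13.2, and the part of these ratios was not tested.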

How the results depend on the processing

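The number of arrays, 2 against 3, limits every test here. Of 468 differences of the named genes, each with 1 setting changed, 454 kept their sign and stayed above an adjusted p of 0.05 in limma, and all 140 role medians stayed below 0. The count of genes passing in limma was 1 without a filter, 85 with the title set block and 80 with the replicate block, against 0. The numbers in the titles do not say that samples are paired. The deviations of same-numbered arrays from the mean of their fraction correlated at 0.57 and 0.48 over 8591 genes, while Sca1+ 2 correlated with Sca1- 3 at 0.52. The deviations of the 2 Sca1+ arrays are equal and opposite by construction. These correlations are therefore not independent and cannot decide whether samples are paired. The replicate block gave Sca1- 3 a term of its own and called 0 of the 42 genes, with a median of -0.84. Among the G2 and M phase genes, 1 passed under the title set block with a signal minimum of 300, without _x_at and _s_at probe sets or with quantile normalization, and 0 under the other settings.

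The median difference of the tested genes, -0.96, was -0.85 with the floor 2 times as high, -0.87 with a pseudocount of 32 or all probe sets, -0.76 with a gene's probe sets averaged, -0.86 without _x_at and also without both _x_at and _s_at probe sets, and -1.05 to -0.77 with 1 sorted array left out. These left-out fits had 37 to 41 genes below 0 and 28 to 36 without overlap, and with all probe sets 62 of 65 were below 0. The feeder minus unsorted median, 0.29, was 0.45 with quantile normalization, 0.65 with median scaling and 0.16 with the mean of probe sets. The unsorted minus sorted median, 0.04, was -0.32 with quantile normalization, -0.64 with median scaling, 0.14 with all probe sets, 0.15 with their mean, 0.16 without _x_at and 0.18 without _x_at and _s_at probe sets, and -0.082 to 0.10 with 1 sorted array left out. Without Sca1+ 1 or Sca1+ 2, the differences of Cks1b were -0.084 and -0.79, of Tacc3 -0.44 and -0.076, and of Cdc20 -1.63 and -0.59. Signs turned for Nek2 (0.078 with quantile normalization, 0.081 with the higher floor, 0.045 with median scaling, 0.0095 with a pseudocount of 32, 0.015 with the replicate block, and -0.44 to 0.44 with an array left out), Bub1 (0.016 with the replicate block, -0.99 to 0.016 left out), Aurkb (0.26 without _x_at), Foxm1 (-0.33 to 0.44 left out) and Smc2 (up to 0.14 left out). The causes of these changes were not tested. The brightest background control read 50.8 to 170 by array, and signals below it occurred on at least 1 array for Cenpe, Cdc25c, Ndc80, Nek2, Kif4, Kif20a, Ect2, Ttk, Bub1, Bub1b and Kif11.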
